A study of Homo sapiens with 12 samples.

Results

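The 10 genes described here encode the FOS and JUN subunits of the transcription factor AP-1 (FOS, FOSB, FOSL1, FOSL2, JUN, JUNB and JUND) and 3 further early response proteins (EGR1, IER2 and IER3). They were chosen by symbol from the raw count tables. All 10 of the 10 symbols were found among the 23228 genes counted, and all 10 passed the filter on low counts, as 14571 genes did in all. The cells were MDA-MB-468, an established human breast cancer line of the triple-negative, basal type. They received tazemetostat plus ipatasertib (the combination), ipatasertib alone, tazemetostat alone, or DMSO, the solvent control. Ipatasertib inhibits the kinase AKT, and tazemetostat inhibits EZH2, which places the repressive methyl mark of PRC2 on histone H3. Each drug was dosed at 5 µM. Cells were held in tazemetostat or DMSO from day -5. On day 0 the medium was changed to one with 2% serum, with or without ipatasertib, and poly(A) RNA was taken 24 h later. Each of the 4 groups has 3 libraries, A, B and C. The labels do not say whether these came from separate cultures, so a p-value here reflects only how these libraries scatter, which may be technical.

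AP-1 is a dimer of basic leucine zipper proteins. JUN proteins can pair with each other, whereas FOS proteins need a JUN partner to bind DNA. FOS, FOSB, JUN, JUNB, EGR1, IER2 and IER3 are classic immediate early genes: growth factors and stress switch them on within minutes without new protein synthesis, mainly through the ERK, JNK and p38 kinases acting on SRF, ternary complex factors and JUN itself, and the transcripts are short-lived. FOSL1 and FOSL2 follow more slowly and last longer, and in basal breast cancer cells FOSL1 is known as a driver of invasive behaviour. Libraries taken 24 h after ipatasertib, and longer after the start of tazemetostat, therefore describe the level at that time, not the first pulse.

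Reads counted in genes numbered 12981622 to 17948209 per library with the combination, 18926477 to 25468348 with ipatasertib, 19023947 to 26070000 with tazemetostat and 22682755 to 28746965 with DMSO. Levels are CPM, counts divided by the TMM-scaled library total and set to a common size, and 3 counts correspond to 0.106 to 0.228 CPM. Reads in no counted feature made up 24.3% to 26.2% of the counted total with the combination, 22.3% to 24.3% with ipatasertib, 19.8% to 23.0% with tazemetostat and 18.3% to 21.0% with DMSO. Their part in the results was not tested. EGFR, amplified in this line, was at 2243 CPM with the combination, 2257 with ipatasertib, 1248 with tazemetostat and 1065 with DMSO, and the epithelial genes KRT7, KRT18, EPCAM and CDH1 were expressed in every group (lowest mean, 121 CPM for CDH1 with ipatasertib). Other markers of the line differed between groups: the basal keratin KRT5 averaged 443 CPM with the combination, 1171 with ipatasertib, 1022 with tazemetostat and 1718 with DMSO, KRT14 averaged 84.5, 206, 114 and 219.5 CPM, and VIM averaged 62.7, 16.7, 59.5 and 20.3 CPM in the same order. Their part in the results was not tested. The 11 markers of leukocytes, endothelium and fibroblasts summed to 16.2 to 19.3 CPM with the combination, 9.86 to 10.1 with ipatasertib, 17.97 to 21.6 with tazemetostat and 13.7 to 15.5 with DMSO, mostly from COL1A1 and CD68. The endothelial marker CDH5 averaged 3.825 CPM with the combination, 0.924 with ipatasertib, 0.472 with tazemetostat and 0.15 with DMSO. Of the 11, the number without a read was 2 with the combination, 2 with ipatasertib, 1 with tazemetostat and 3 with DMSO, and their part in the results was not tested. Library A stood apart in every group: a chi-square of the counts over all genes, divided by its degrees of freedom, was 4.18 to 14.7 for A set against B or C, and 2.35 to 3.47 for B against C. The highest value of a group most often came from library A with the combination (8 of the 10 genes), library C with ipatasertib (7), library C with tazemetostat (7) and library C with DMSO (6). Results that rest on 1 library or on the A libraries are given with and without them.

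FOSL2 and JUN were the 2 genes of the set that rose under each of the 3 treatments, IER2 fell with ipatasertib and with the combination, and IER3 rose with ipatasertib and fell with tazemetostat. The rise of JUN with ipatasertib alone was small and not called in 9 of 20 alternative settings. With ipatasertib, 4 of the 10 genes were higher than with DMSO and 1 was lower by edgeR's quasi-likelihood test at an adjusted p under 0.05, while 47.1% of all tested genes were called (24% higher and 23.1% lower). With tazemetostat, 2 were higher and 1 was lower, against a background of 47.2% (25.9% higher and 21.3% lower). With the combination, 3 were higher and 2 lower, against 64.4% (34.4% higher and 30% lower). The counts called were 3 with ipatasertib without DMSO library B or ipatasertib library B, 3 with the combination without its library B, and 5 with tazemetostat with no filter on low counts or without the A library of every group. The called share of the set was close to the background with ipatasertib and below it with tazemetostat and the combination, so the counts alone do not set these genes apart. The median log2 fold change of the 10 genes was 0.15 with the combination, 0.09 with ipatasertib and -0.15 with tazemetostat, against medians of 0.03, 0.00 and 0.01 over all tested genes. These are bulk libraries, so a change of level in every cell and a change in the share of cells that express a gene cannot be told apart.

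**Figure D1:**
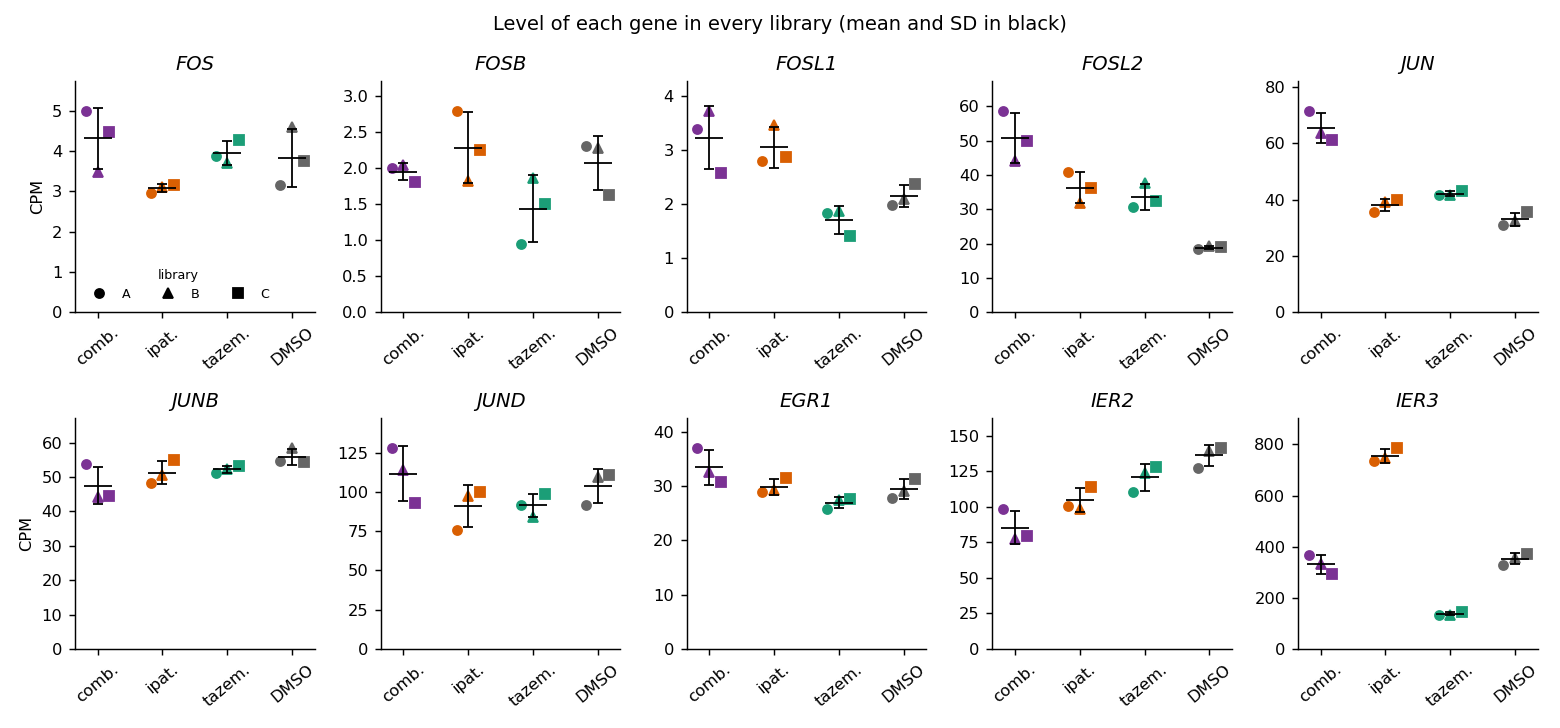
CPM of each of the 10 genes (vertical axis, from 0, its own scale per panel) in the 3 libraries of the combination, ipatasertib, tazemetostat and DMSO groups. Points are libraries, with the shape giving the letter, and black bars are mean and SD. IER3 lies between 733 and 786 CPM in the ipatasertib libraries and between 133 and 144 in the tazemetostat libraries, and FOSL2 is lowest in the 3 DMSO libraries.

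The upstream sequences of 4 of these genes are shown because their genes responded differently: JUN and FOSL2 were raised by both drugs, IER2 was lowered, and EGR1 passed no test against DMSO. The opposite changes of IER3 are not represented. Each line gives the 250 bases before the RefSeq start, 5′ to 3′ on the gene's strand, build GRCh38.p14, with capitals marking the matches described after them, some of which are on the opposite strand and so read as the reverse complement. JUN lies at chr1:58784048-58784297 (minus strand), FOSL2 at chr2:28392608-28392857 (plus strand), IER2 at chr19:13150161-13150410 (plus strand) and EGR1 at chr5:138465229-138465478 (plus strand).
JUN: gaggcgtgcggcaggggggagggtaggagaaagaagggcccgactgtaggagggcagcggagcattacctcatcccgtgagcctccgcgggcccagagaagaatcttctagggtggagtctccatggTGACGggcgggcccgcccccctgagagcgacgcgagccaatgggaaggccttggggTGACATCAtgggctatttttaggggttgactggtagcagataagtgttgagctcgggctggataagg
FOSL2: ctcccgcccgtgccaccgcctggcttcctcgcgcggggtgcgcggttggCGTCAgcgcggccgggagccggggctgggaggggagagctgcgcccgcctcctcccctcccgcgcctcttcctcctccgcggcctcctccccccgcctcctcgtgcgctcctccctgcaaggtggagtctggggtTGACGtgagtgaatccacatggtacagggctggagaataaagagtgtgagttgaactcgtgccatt
IER2: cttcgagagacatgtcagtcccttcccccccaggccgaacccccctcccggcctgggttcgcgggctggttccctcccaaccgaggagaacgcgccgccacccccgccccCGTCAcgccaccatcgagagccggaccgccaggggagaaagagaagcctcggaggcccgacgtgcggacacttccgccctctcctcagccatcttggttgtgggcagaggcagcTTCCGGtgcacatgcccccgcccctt
EGR1: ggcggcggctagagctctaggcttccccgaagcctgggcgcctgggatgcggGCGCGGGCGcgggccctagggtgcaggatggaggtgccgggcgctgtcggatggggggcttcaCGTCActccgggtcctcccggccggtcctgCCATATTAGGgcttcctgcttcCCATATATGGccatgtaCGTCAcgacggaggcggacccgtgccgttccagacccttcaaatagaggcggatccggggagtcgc
The count tables carry no coordinates and the submitters' processing notes name hg19, so these positions belong to the RefSeq table alone. Of the 10 genes, 8 had an entry and were searched on both strands: FOS, FOSB, FOSL2, JUN, JUNB, JUND, EGR1 and IER2. FOSL1 and IER3 had none.

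The shared element of these promoters was TGACG, the core of the cyclic AMP response element, which was found in 8 of 8, against 21.2% of 35116 promoters of the same length. It was added to the search after the sequences had been seen and is a description. The 8 windows held 62.0% to 74.8% G and C, and the promoters they were set against were not matched for this. The full element TGACGTCA, which contains that core, was in JUND alone (1.65% of all promoters). JUN carried TGACATCA (2.38%), also searched only after the sequences had been seen, a form of the AP-1 site through which JUN proteins are known to act on the JUN gene. The consensus AP-1 site TGANTCA (6.57% of all promoters) was in none of the 8 windows. EGR1 alone held the CArG box bound by SRF (1.16%), at 2 positions, and the EGR site GCGNGGGCG (8.41%). The ETS core CCGGAA (14.5%) was in FOSB and IER2, the FOXO core GTAAACA (2.98%) in JUNB, and the TATA core TATAAA (10.7%) in FOS, FOSB and JUNB. A match is only a match of letters, and a missing one says nothing of sites farther upstream.

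IER3, an early response gene whose product is known to affect ERK signalling and cell survival, had the highest level of the set and the widest range. It was at 368, 334 and 294 CPM with the combination (A, B and C), 733, 746 and 786 with ipatasertib, 133, 134 and 144 with tazemetostat, and 330.2, 357 and 373 with DMSO. The ipatasertib libraries stood above all others, the tazemetostat libraries stood below all others, and the combination overlapped DMSO. IER3 rose 2.14-fold with ipatasertib (log2 fold change 1.10 ± 0.075 SE, adjusted p = 1.7e-10) and fell by 1.36 ± 0.077 on the log2 scale with tazemetostat (adjusted p = 2.89e-12). The mean level with ipatasertib was 5.50 times that with tazemetostat.

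With both drugs IER3 differed from DMSO by a log2 fold change of -0.09 (95% interval -0.25 to 0.07, adjusted p = 0.302). Tazemetostat on top of ipatasertib lowered it by a log2 fold change of -1.19, and ipatasertib on top of tazemetostat raised it by 1.27 (adjusted p = 2.09e-11 and 1.53e-11). These 2 opposite effects, each on top of the other drug, were close in size. Against DMSO the single-drug effects were 1.10 with ipatasertib and -1.36 with tazemetostat, a sum of -0.27. The interaction was 0.18 ± 0.11 SE (adjusted p = 0.275). Without library A of the combination, IER3 was lower than DMSO (log2 fold change -0.17, adjusted p = 0.0425), and without the A library of every group it was -0.22 (adjusted p = 0.00097). The adjusted p of this difference ranged from 0.00097 to 0.911 over the 20 alternatives.

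FOSL2, a FOS-family subunit that lacks the strong activation domain of FOS, rose with each drug and most with both. It was at 58.6, 44.2 and 49.9 CPM with the combination, 41.0, 31.9 and 36.2 with ipatasertib, 30.6, 37.7 and 32.4 with tazemetostat, and 18.3, 19.2 and 18.9 with DMSO. All 9 treated libraries were above all DMSO libraries, the combination was above both single drugs, and the single drugs overlapped each other. The log2 fold change against DMSO was 1.44 ± 0.11 SE with the combination (adjusted p = 1.19e-10), 0.95 ± 0.11 with ipatasertib (adjusted p = 2.65e-07) and 0.84 ± 0.11 with tazemetostat (adjusted p = 1.25e-06). The combination also exceeded ipatasertib (0.49, adjusted p = 0.000548) and tazemetostat (0.60, adjusted p = 6.17e-05). These 5 calls held under each of the 20 alternatives.

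JUN, the AP-1 subunit activated by JNK, rose most with both drugs. Its levels were 71.5, 63.6 and 61.2 CPM with the combination, 35.6, 39.1 and 39.8 with ipatasertib, 41.7, 41.8 and 43.1 with tazemetostat, and 30.9, 32.5 and 35.7 with DMSO. The lowest combination library was above every other library, the tazemetostat libraries were above those with ipatasertib and DMSO, and ipatasertib overlapped DMSO. The log2 fold change against DMSO was 0.99 ± 0.079 SE with the combination (1.98-fold, adjusted p = 4.26e-10), 0.21 ± 0.080 with ipatasertib (adjusted p = 0.0367) and 0.35 ± 0.079 with tazemetostat (adjusted p = 0.000906). JUN was also higher with the combination than with ipatasertib (0.78, adjusted p = 4.43e-08) and than with tazemetostat (0.63, adjusted p = 9.48e-07).

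The JUN difference between ipatasertib and DMSO had an adjusted p that, over all 20 alternatives, ranged from 0.0112 to 0.168. With the replicate letter as a block, the adjusted p was 0.0633. It was 0.168 without DMSO library A, 0.115 without DMSO library B, 0.121 without ipatasertib library B and 0.168 without ipatasertib library C. It was also lost without tazemetostat library B (0.0513), tazemetostat library C (0.0619) or combination library B (0.0582), and with no filter on low counts (0.0567).

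JUNB and JUND, the JUN-family members known to restrain growth more often than JUN does, were far steadier. JUNB was at 53.7, 44.1 and 44.6 CPM with the combination, 48.3, 50.6 and 54.9 with ipatasertib, 51.2, 52.4 and 53.1 with tazemetostat, and 54.7, 58.5 and 54.5 with DMSO. All 3 combination libraries were below all DMSO libraries, but library A came within 1 CPM of the lowest of them. JUNB fell by 0.23 ± 0.080 on the log2 scale with the combination (adjusted p = 0.016), and this was not called in 4 of 20 alternatives (adjusted p 8.06e-05 to 0.0781), namely without DMSO library B (0.0558), without combination library B (0.0506) or C (0.0781), and with library totals as the only scaling (0.0689). With ipatasertib the 95% interval of its log2 fold change was -0.28 to 0.04, and with tazemetostat -0.26 to 0.07. Without combination library A, JUNB was also lower with the combination than with ipatasertib (-0.21, adjusted p = 0.0311) and than with tazemetostat (-0.24, adjusted p = 0.0162).

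JUND had 128, 114 and 93.0 CPM with the combination, 76.0, 97.1 and 100.1 with ipatasertib, 91.8, 83.9 and 98.8 with tazemetostat, and 91.6, 109.7 and 110.5 with DMSO. The groups overlapped throughout. No change of JUND against DMSO passed, with log2 fold changes of 0.11 with the combination, -0.19 with ipatasertib and -0.18 with tazemetostat (adjusted p = 0.403, 0.158 and 0.171). With no filter on low counts, ipatasertib and tazemetostat passed as lower (0.0277 and 0.0283), as tazemetostat did without the A library of every group (0.00574). The combination was called higher than ipatasertib (0.30, adjusted p = 0.0316) and than tazemetostat (0.29, adjusted p = 0.0345). Without combination library A these were 0.18 (adjusted p = 0.179) and 0.18 (adjusted p = 0.199), and over all alternatives the adjusted p reached 0.514 and 0.199. Without ipatasertib library A the first was 0.17, without tazemetostat library B the second was 0.22, and neither passed (adjusted p = 0.232 and 0.14). Both calls were also lost without combination library B (0.0772 and 0.0866) and without the A library of every group (0.514 and 0.0686).

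IER2, a nuclear early response protein, was lower under ipatasertib and lowest under both drugs. It was at 98.6, 77.5 and 79.6 CPM with the combination, 100.4, 98.6 and 114 with ipatasertib, 110.1, 124 and 128 with tazemetostat, and 127, 139 and 141 with DMSO. Every combination and ipatasertib library was below every DMSO library, and the highest tazemetostat library just overlapped DMSO. IER2 fell by 0.67 ± 0.088 on the log2 scale with the combination (adjusted p = 8.15e-07) and fell by 0.38 ± 0.086 with ipatasertib (adjusted p = 0.000999). With tazemetostat the log2 fold change was -0.17 (95% interval -0.35 to 0.01, adjusted p = 0.103). This passed in 3 of the 20 alternatives: with no filter on low counts (0.0361), without the A library of every group (0.0232) and without combination library A (0.0455). The combination was below tazemetostat (-0.50, adjusted p = 8.7e-05) and below ipatasertib (-0.29, adjusted p = 0.0107). The last call was lost without ipatasertib library C or combination library B or C (adjusted p = 0.0569, 0.0654 and 0.0602).

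EGR1, a zinc finger factor induced by ERK through SRF, stayed within a narrow band. It was at 37.0, 32.5 and 30.7 CPM with the combination, 28.8, 29.2 and 31.5 with ipatasertib, 25.8, 27.4 and 27.6 with tazemetostat, and 27.8, 29.1 and 31.3 with DMSO. The tazemetostat libraries were below all DMSO libraries by a small margin, and the other groups overlapped DMSO. The 95% interval of the log2 fold change against DMSO was 0.01 to 0.36 with the combination, -0.15 to 0.19 with ipatasertib and -0.30 to 0.05 with tazemetostat (adjusted p = 0.0544, 0.848 and 0.225). The difference with the combination passed with library totals as the only scaling (0.0125), with the stricter count filter (0.0324) and without combination library C (0.0255). One difference passed: EGR1 was higher with the combination than with tazemetostat (log2 fold change 0.31 ± 0.085 SE, adjusted p = 0.00445), and it passed in 20 of 20 alternatives.

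FOS, FOSB and FOSL1 were barely expressed, with 18 to 103 counts per library. FOS, the founding member of its family, was at 4.99, 3.49 and 4.46 CPM with the combination, 2.96, 3.10 and 3.15 with ipatasertib, 3.88, 3.70 and 4.28 with tazemetostat, and 3.16, 4.59 and 3.74 with DMSO. The ipatasertib libraries were the 3 lowest of the 12, but only just below the lowest DMSO library, and the change did not pass (log2 fold change -0.30, 95% interval -0.64 to 0.03, adjusted p = 0.129). It passed without DMSO library A (log2 fold change -0.43, adjusted p = 0.0477). FOS was higher with the combination than with ipatasertib (0.51 ± 0.17 SE, adjusted p = 0.02). That call was lost without ipatasertib library A (adjusted p = 0.059), without combination library A (0.12) or C (0.0548), without the A library of every group (0.155) and by DESeq2 (0.0501).

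FOSL1, which ERK activity both induces and stabilises, was higher in both groups that received ipatasertib. It was at 3.38, 3.72 and 2.58 CPM with the combination, 2.79, 3.47 and 2.88 with ipatasertib, 1.83, 1.87 and 1.41 with tazemetostat, and 1.99, 2.09 and 2.37 with DMSO. The 6 libraries with ipatasertib, alone or in combination, lay above the 6 without it. FOSL1 rose with the combination (0.58 ± 0.18 SE, adjusted p = 0.00868) and with ipatasertib (0.49 ± 0.17, adjusted p = 0.0245), and the combination exceeded tazemetostat (0.92 ± 0.20, adjusted p = 0.000556). The log2 fold change with tazemetostat alone was -0.34 (95% interval -0.73 to 0.06, adjusted p = 0.155). The ipatasertib call was lost without DMSO library A (adjusted p = 0.0909) or B (0.0672), without ipatasertib library B (0.114), without the A library of every group (0.064) and by DESeq2 (0.0738). The combination call was lost without combination library B (0.0583) and without the A library of every group (0.0793).

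FOSB, a further FOS-family subunit, was at 2.00, 2.05 and 1.81 CPM with the combination, 2.79, 1.82 and 2.25 with ipatasertib, 0.943, 1.87 and 1.497 with tazemetostat, and 2.31, 2.27 and 1.63 with DMSO. All groups overlapped DMSO. Its adjusted p against DMSO was 0.786 with the combination, 0.566 with ipatasertib and 0.0875 with tazemetostat, and at 18 to 65 counts per library the 95% interval with tazemetostat spanned -0.95 to -0.01 on the log2 scale. It passed without DMSO library C (-0.64, adjusted p = 0.0432) and without tazemetostat library B (-0.74, adjusted p = 0.0264).

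**Figure D2:**
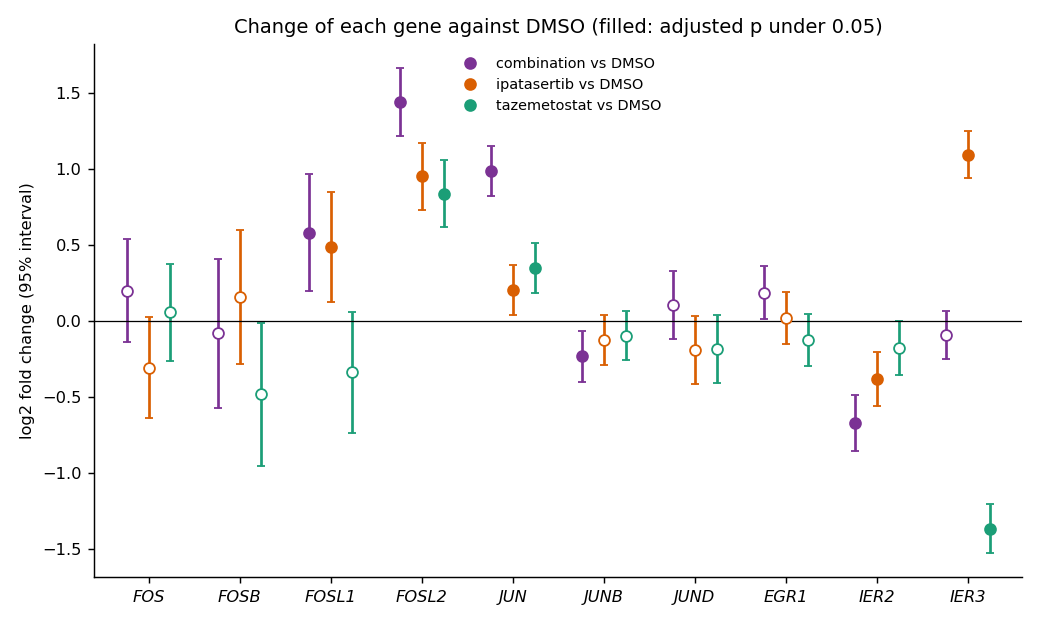
Log2 fold change of each gene (horizontal axis) against DMSO for the combination, ipatasertib and tazemetostat, with 95% intervals. Filled points passed an adjusted p under 0.05. FOSL2 is above 0 under all 3 treatments, and IER3 has filled points on opposite sides of 0 for ipatasertib (1.10) and tazemetostat (-1.36).

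Per kilobase of exon (GENCODE release 29 lengths, which may differ from the annotation used for counting), the total of the FOS family rose. Most of that rise was FOSL2, and not every member rose. Mean FOSB was 0.351 CPM per kb with the combination and 0.259 with tazemetostat, against 0.373 with DMSO. Mean FOSL1 was above mean FOS with the combination (1.753 ± 0.318 and 1.468 ± 0.259 CPM per kb, SD) and ipatasertib (1.655 ± 0.201 and 1.045 ± 0.0335). This order rests on the exon lengths used, 1.84 kb for FOSL1 and 2.938 kb for FOS. Before division by length, FOSL1 averaged 3.23 CPM and FOS 4.31 with the combination, and 3.05 and 3.07 with ipatasertib. Per kilobase, mean FOSL1 was below mean FOS with tazemetostat (0.927 and 1.345) and DMSO (1.168 and 1.303). FOSL2 was the leading FOS-family transcript in each group, at 7.49 ± 1.07 CPM per kb with the combination, 5.35 ± 0.672 with ipatasertib, 4.94 ± 0.541 with tazemetostat and 2.77 ± 0.0661 with DMSO (SD, n = 3). Its share of the summed FOS family was 67.6% ± 2.66 with the combination, 63.1% ± 3.86 with ipatasertib, 66.0% ± 1.82 with tazemetostat and 49.4% ± 1.79 with DMSO. The lowest treated library had 59.0% and the highest DMSO library 51.2%. The summed FOS family was 10.1 to 12.5 CPM per kb with the combination, 7.96 to 9.06 with ipatasertib, 6.99 to 8.16 with tazemetostat and 5.26 to 5.93 with DMSO, without overlap between any treatment and DMSO.

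The JUN family was far more abundant, and its sum overlapped between groups. It was 91.7 to 118 CPM per kb with the combination, 77.4 to 95.1 with ipatasertib, 85.7 to 94.4 with tazemetostat and 87.9 to 100.2 with DMSO. JUND led it with 54.7% to 58.1% of the family on average in each group. The share of JUN was 17.8% ± 0.953 with the combination, 12.3% ± 0.599 with ipatasertib, 13.3% ± 0.450 with tazemetostat and 9.75% ± 0.521 with DMSO, and that of JUNB was 25.03% ± 1.64, 32.2% ± 1.92, 32.0% ± 1.42 and 32.1% ± 2.02 in the same 4 groups. Shares and sums are descriptions over the members and carry no test. On the same scale IER3 was at 245 ± 27.4 CPM per kb with the combination, 557 ± 20.5 with ipatasertib, 101 ± 4.44 with tazemetostat and 260.4 ± 15.8 with DMSO.

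**Figure D3:**
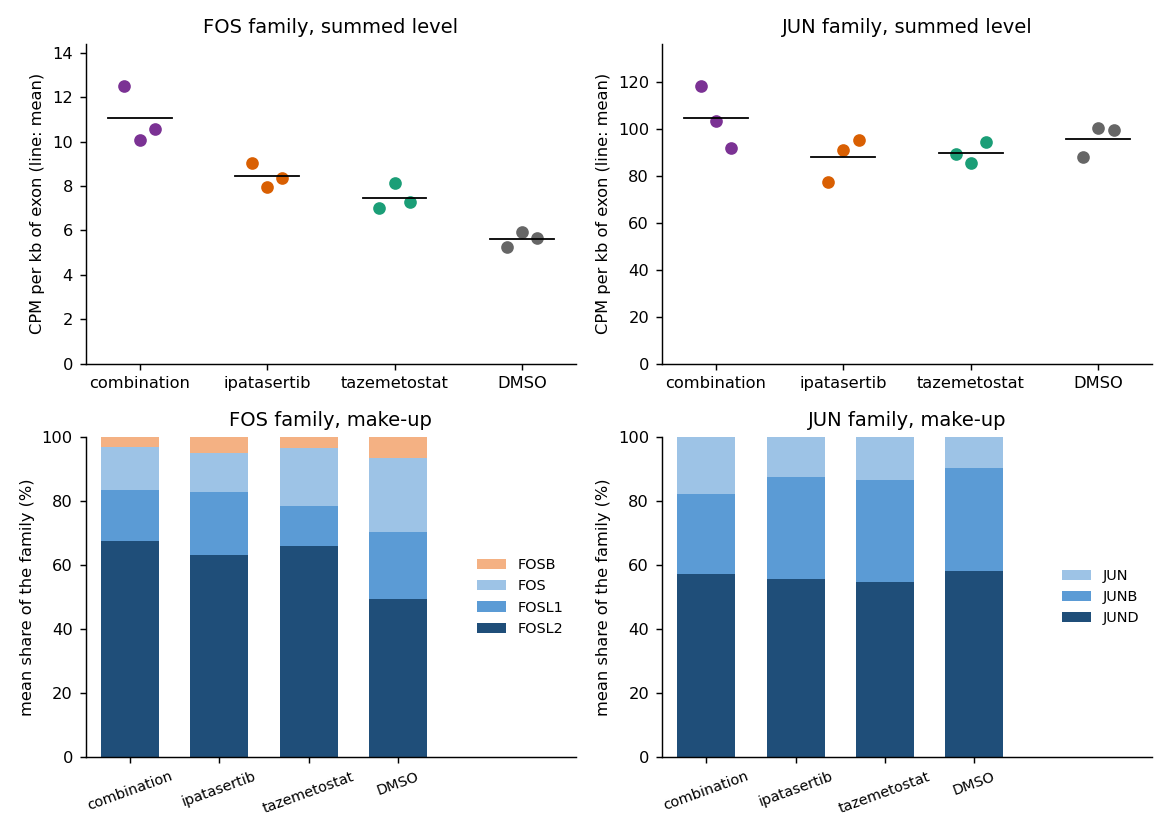
Upper panels: summed level of the FOS family (left) and the JUN family (right) in CPM per kb of exon, each point a library and each line a group mean. Lower panels: mean share of each family member in percent, stacked to the whole. FOSL2 makes up 67.6% of the FOS family with the combination, 63.1% with ipatasertib and 66.0% with tazemetostat, against 49.4% with DMSO, and the JUN share is 17.8% with the combination against 9.75% with DMSO.

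The combination was set against the sum of the single-drug effects by an interaction term. Of the 10 genes, 2 passed, both higher than additive, against 12% of all tested genes (5.96% higher and 6.01% lower). Over all genes 1744 were called, with 674 without combination library B and 3681 without tazemetostat library A as the extremes when 1 library was left out. For JUN the single effects summed to a log2 fold change of 0.56 while the combination gave 0.99, an excess of 0.43 ± 0.11 SE (adjusted p = 0.0184). This held in 18 of 19 alternatives (adjusted p 0.0048 to 0.0792) and was lost without DMSO library C (excess 0.36, adjusted p = 0.0792). JUND had a sum of -0.37 and 0.11 with the combination (excess 0.48 ± 0.15 SE, adjusted p = 0.0453). The JUND call was lost in 8 of 19 alternatives, among them without combination library A (0.37, adjusted p = 0.0759), without DMSO library B or C, ipatasertib library A, tazemetostat library B or combination library B (adjusted p = 0.114, 0.128, 0.123, 0.112 and 0.0929) with library totals as the only scaling (adjusted p = 0.0568) and with the replicate letter as a block (adjusted p = 0.0709).

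FOSL2 went the other way, with a sum of 1.80 and 1.44 with the combination, a shortfall that did not pass (interaction -0.35 ± 0.15 SE, adjusted p = 0.117). It passed in 4 of 19 alternatives (adjusted p 0.00689 to 0.324), namely without the A library of every group (-0.42, adjusted p = 0.00689), without combination library A (-0.47, 0.0208), without tazemetostat library A (-0.40, 0.0434) and with no filter on low counts (-0.36, 0.0374). The interaction of EGR1 was 0.29 ± 0.12 SE (adjusted p = 0.106), that of FOS 0.45 ± 0.23 (adjusted p = 0.202) and that of FOSL1 0.43 ± 0.26 (adjusted p = 0.287). That of IER2 was -0.12 ± 0.12 (adjusted p = 0.556), and -0.28 without the A library of every group (adjusted p = 0.0119).

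**Figure D4:**
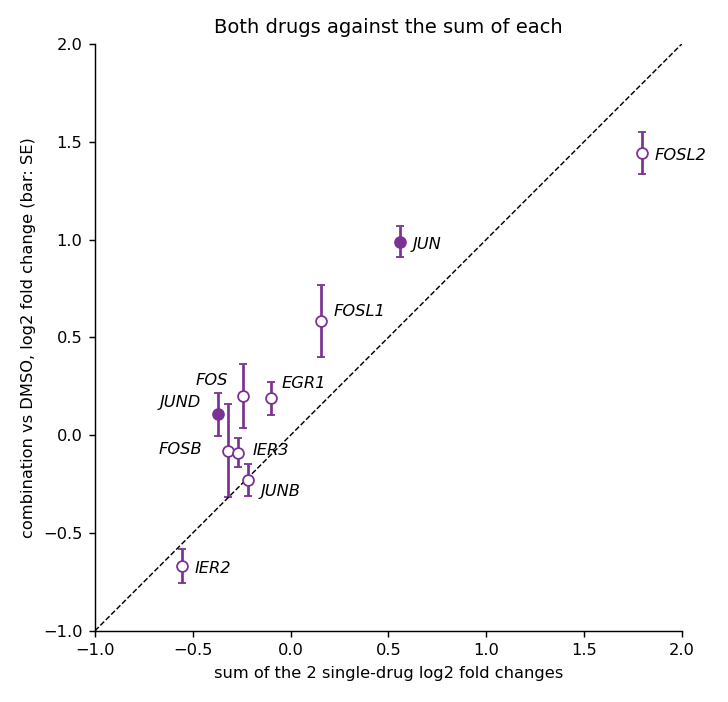
Combination against DMSO (vertical axis, log2 fold change with SE) plotted on the sum of the ipatasertib and tazemetostat log2 fold changes (horizontal axis) for the 10 genes. The dashed line marks additive effects, and filled points passed the interaction test. JUN (0.56 and 0.99) and JUND (-0.37 and 0.11) lie above the line, and FOSL2 (1.80 and 1.44) lies below it.

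Set against each single drug, more of the 10 genes were higher than lower with the combination. Against tazemetostat, 6 were higher (FOSL1, FOSL2, JUN, JUND, EGR1 and IER3) and 1 was lower (IER2), while 46.3% of all genes were called (23.2% higher and 23.1% lower). Against ipatasertib, 4 were higher (FOS, FOSL2, JUN and JUND) and 2 lower (IER2 and IER3), while 44.9% were called (24.2% higher and 20.7% lower). As given above, the JUND calls in both comparisons and the FOS and IER2 calls against ipatasertib did not hold in every alternative.

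Of 36 other immediate early genes, 33 were tested. With the combination 19 were higher and 4 lower than with DMSO (64.4% of all genes called), with ipatasertib 15 and 4 (47.1%), and with tazemetostat 11 and 9 (47.2%). Their median log2 fold changes were 0.32, 0.14 and 0.00, beside 0.03, 0.00 and 0.01 over all genes. A gene nearly silent with DMSO passes the filter on low counts only where a treatment raises it, so these counts and medians do not describe the whole list. EGR2 was such a gene (0.102 CPM with DMSO and 1.11 with the combination). BTG2, an antiproliferative early gene, was at 23.6 ± 1.20 CPM with the combination, 4.97 ± 0.725 with ipatasertib, 11.6 ± 0.519 with tazemetostat and 4.01 ± 0.594 with DMSO (SD, n = 3). It rose with the combination (2.56, adjusted p = 4.41e-14) and with tazemetostat (1.53, adjusted p = 1.24e-09), and its interaction was positive (0.72, adjusted p = 0.0123). CTGF, a secreted matricellular protein, was at 132 ± 8.13 CPM with the combination, 96.4 ± 2.29 with ipatasertib, 25.9 ± 1.95 with tazemetostat and 23.6 ± 0.145 with DMSO, and rose with ipatasertib (2.03, adjusted p = 7.26e-15). MAFF, a small MAF protein, rose with ipatasertib (1.41, adjusted p = 1.17e-09) and with the combination (1.24, adjusted p = 3.14e-09), and its log2 fold change with tazemetostat was -0.09 (adjusted p = 0.571). In the interaction, 9 of the 33 were called positive and none negative, beside 5.96% and 6.01% of all genes. The interaction calls over all genes varied with 1 library left out, as given above, and the list's count was not recomputed there. This list, like the other related lists, was chosen with earlier results of these data known, so its counts are a description. The related lists share some genes, such as ATF3, MAFF, PHLDA1 and CCND1, so their counts are not separate observations.

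Of 28 genes widely described as AP-1 targets, 22 were tested: 13 were higher and 5 lower with the combination (64.4% of all genes called), 8 and 6 with ipatasertib (47.1%), and 12 and 3 with tazemetostat (47.2%). Their median log2 fold changes were 0.90, 0.07 and 0.54, beside 0.03, 0.00 and 0.01 over all genes. The filter on low counts keeps a gene that is silent with DMSO only where a treatment raises it. MMP1, MMP3 and MMP13 were such genes (MMP3 at 0 CPM with DMSO and 3.74 with the combination). These counts and medians therefore do not describe the whole list and are no support for a rise of AP-1 targets. The collagenase gene MMP13 was at 90.0 ± 2.35 CPM with the combination and 61.5 ± 9.39 with tazemetostat, against 0.0633 ± 0.0377 with ipatasertib and 0.0151 ± 0.0262 with DMSO. IVL, the cornified envelope protein involucrin, rose with the combination by 2.52 (adjusted p = 6.84e-12). It also rose with tazemetostat by 1.78 (adjusted p = 8.21e-09) and with ipatasertib by 0.63 (adjusted p = 0.0078).

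ERK output genes are transcripts widely used to read ERK activity. Of 14 tested, 10 were higher and 2 lower with the combination (64.4% of all genes called), 10 and 1 with ipatasertib (47.1%), and 4 and 7 with tazemetostat (47.2%). Their median log2 fold changes were 0.82, 0.76 and -0.27, beside 0.03, 0.00 and 0.01 over all genes. The ETS factor ETV4 was at 27.0 ± 3.09 CPM with the combination, 54.6 ± 3.69 with ipatasertib, 7.09 ± 0.191 with tazemetostat and 14.3 ± 1.31 with DMSO (SD, n = 3), so it stood highest with ipatasertib and lowest with tazemetostat, as IER3 did. ETV5 rose with ipatasertib (1.97, adjusted p = 1.15e-12) and fell with tazemetostat (-0.57, adjusted p = 0.000362). ETV1 rose with both drugs given singly (1.68 with ipatasertib and 1.14 with tazemetostat, adjusted p = 3.72e-09 and 1.55e-06).

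**Figure D5:**
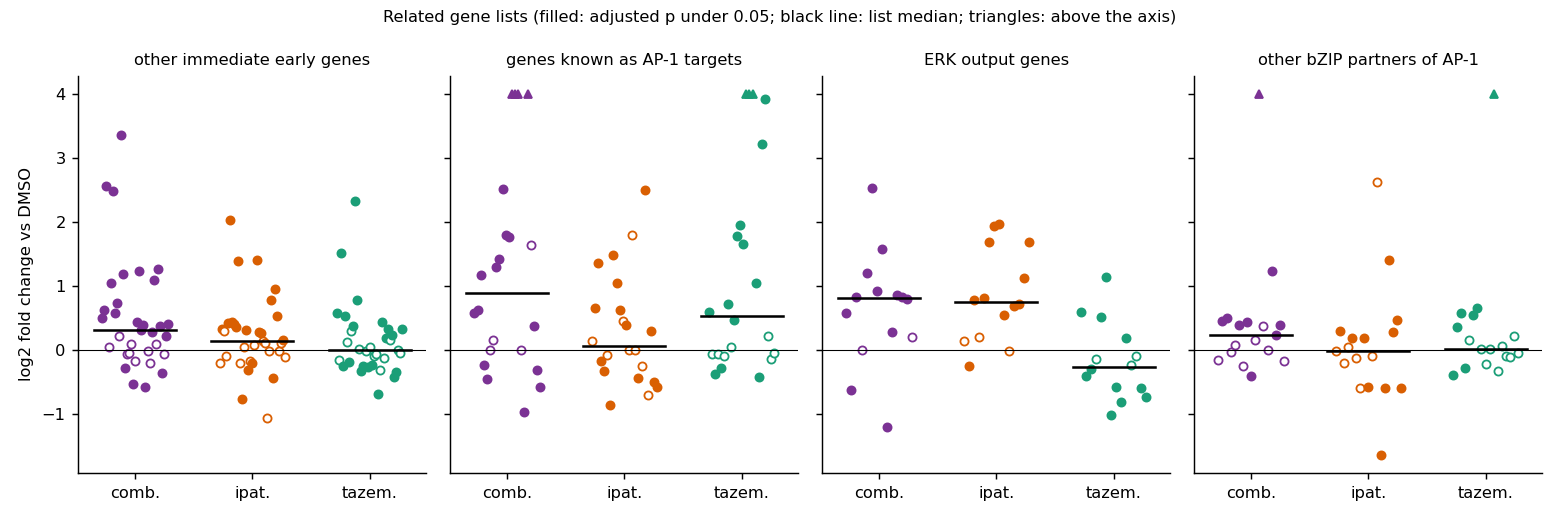
Log2 fold change against DMSO (vertical axis) of the tested genes in 4 related lists, for the combination, ipatasertib and tazemetostat. Each point is a gene, filled where the adjusted p was under 0.05, black lines are list medians, and triangles are genes above the axis limit. The ERK output genes have medians of 0.82, 0.76 and -0.27 under the combination, ipatasertib and tazemetostat.

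Of 18 other basic leucine zipper genes, some of which can pair with AP-1 subunits, 17 were tested. With the combination 8 were higher and 1 lower (64.4% of all genes called), with ipatasertib 6 and 4 (47.1%), and with tazemetostat 5 and 2 (47.2%). MAF had no read in the DMSO libraries and was at 9.93 ± 1.99 CPM with the combination and 6.78 ± 0.706 with tazemetostat, at least 256-fold and 173-fold higher than the level that 3 counts in the pooled DMSO libraries would give. It passed the filter on low counts only through the groups where it was high, so its calls there are no separate support. Among 23 kinase, SRF-related and corepressor genes upstream of these factors, 7 were higher and 8 lower with the combination, 6 and 2 with ipatasertib, and 4 and 4 with tazemetostat, shares close to the background with the combination and below it with each single drug. The ternary complex factor ELK3 and the ribosomal S6 kinase gene RPS6KA2 rose with the combination (1.38 and 1.39, adjusted p = 3.08e-09 and 5.88e-11), and MAP2K1, which activates ERK, fell by 0.56 on the log2 scale (adjusted p = 1.02e-06). ELK3 also rose with ipatasertib (0.84, adjusted p = 1.1e-05) and with tazemetostat (0.66, adjusted p = 0.000212). RPS6KA2 rose with ipatasertib (0.71, adjusted p = 5.07e-06) and with tazemetostat (0.89, adjusted p = 1.77e-07). MAP2K1 was lower with ipatasertib (-0.31, adjusted p = 0.00127), and its log2 fold change with tazemetostat was -0.15 (adjusted p = 0.0848).

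The genes whose log2 CPM followed a member most closely over the 12 libraries, among 11408 genes of at least 5 CPM in a group, were, for the 4 members with the widest range, S100A3 for IER3 (Pearson r = 0.991), GGA2 for FOSL2 (0.993), C6orf145 for JUN (0.996) and TAF1D for FOSL1 (0.944). All points share 4 groups of 3 libraries, so such values describe the order of the groups more than 12 separate observations. Within the set, JUNB and IER2 had r = 0.892, FOSL2 and JUN 0.835, and FOSL2 and IER2 -0.777, also over 12 libraries.

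Some of these counts carry an added uncertainty, because no source used here states whether reads were counted by strand. In GENCODE release 29, FOSB overlaps ERCC1, JUNB overlaps HOOK2, FOSL2 overlaps FLJ31356, IER2 overlaps AC011446.2 and IER3 overlaps IER3-AS1, each on the other strand, and the intronic transcript AC104695.3 lies in FOSL2 on its own strand. FOS, FOSL1, JUN, JUND and EGR1 had no overlapping gene there.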

How the data were processed

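The material was poly(A) RNA from MDA-MB-468 cells, 12 libraries in 4 groups of 3. Raw read counts by gene symbol were deposited by the authors, 1 table a library. STAR, SAMtools, HTSeq, DESeq2 and hg19 are named in the submitters' processing notes without versions or order. A further deposited table of values that are not whole numbers was not used here. The closing rows that name no gene stayed out of totals and tests; they held 36.8% to 39.5% of counted reads with the combination, 36.0% to 37.3% with ipatasertib, 32.8% to 34.8% with tazemetostat and 32.0% to 35.4% with DMSO.

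A single edgeR model (version 4.0.16, R 4.3.3) with a mean for each group was fitted to all 12 libraries, which leaves 8 residual degrees of freedom. Genes passed filterByExpr at a minimum count of 10, TMM set the scaling, and robust quasi-likelihood tests were adjusted by Benjamini-Hochberg over 14571 genes with a threshold of 0.05. Every adjusted p comes from this model unless another setting is named. Floors allow for counting error alone, because without molecular identifiers several reads can stem from 1 molecule. The procedure was also run on simulated counts with the same spread for every gene and few changed genes. These data differ in both respects, so that run does not measure its accuracy here.

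The members, the related lists and the naming rule were chosen with earlier results of these data known. The rule names all members and, from each list, the 3 genes with the largest called change against DMSO among those of at least 5 CPM in a group. Some genes that the rule names are not reported here. Alternatives covered RLE scaling, library totals alone, DESeq2 (version 1.42.0), no filter or at least 50 counts in 3 libraries, a model of the compared groups alone, the replicate letter as a block, and libraries left out. Deviations of same-letter libraries of ipatasertib and DMSO correlated at 0.419 (A), 0.134 (B) and 0.106 (C) over 10921 genes, all above the bound of 0.1 for reading letters as pairs. The evidence is weak, since B and C of different groups correlated at 0.159 and 0.215. In each other comparison at least 1 same-letter pair was below 0.1, and between the combination and tazemetostat all were negative (-0.614 to -0.345). Promoter sequences are RefSeq's, on GRCh38.p14.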

Additional observations from a re-analysis of the deposited data

Results flagged for a closer look

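For 2 of the 10 genes the effect of one drug differed by whether the other was present, as tested by the interaction term of the edgeR model, which called 12% of all genes. The interaction of JUN was 0.43 on the log2 scale (adjusted p = 0.0184), with 65.4 ± 5.38 CPM with the combination, 38.2 ± 2.28 with ipatasertib, 42.2 ± 0.768 with tazemetostat and 33.0 ± 2.42 with DMSO (SD, n = 3 each). That of JUND was 0.48 (adjusted p = 0.0453), with 111.7 ± 17.6, 91.1 ± 13.2, 91.5 ± 7.45 and 103.9 ± 10.7 CPM in the same order of groups. The JUND call was lost in 8 of 19 alternatives (adjusted p up to 0.128), and the JUN call in 1 of 19, without DMSO library C (0.0792).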

How the results depend on the processing

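Of 28 member results called, 18 were called under every alternative that gave a value. The number of members called with ipatasertib against DMSO was 5, and 3 to 5 when libraries were left out in turn. With tazemetostat it was 3, and 5 both with no filter on low counts and without the A library of every group. With the combination it was 5, and 3 to 6 with libraries left out. The interaction was called for 2 members and 1744 genes, and for 0 to 3 members and 674 to 3681 genes with libraries left out. It was called for 1 member with library totals alone, and for 4 members and 5452 genes without the A library of every group.

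With the replicate letter as a block, the interaction was called for 1 member and 1012 genes, and the adjusted p was 0.0709 for JUND. Only between ipatasertib and DMSO were all same-letter correlations above the bound of 0.1, and that evidence for pairs is weak, as given above. In that comparison the block left 4 members called, and the adjusted p of JUN was 0.0633. The block changed no other member call.

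Changes of sign concerned uncalled differences. Without the A library of every group, the log2 fold change was -0.0548 for FOS with tazemetostat, and with the combination -0.051 for FOS, 1.08e-05 for FOSB and -0.0916 for JUND against DMSO and -0.00671 for FOSL1 against ipatasertib. With libraries left out in turn, it ranged from -0.0219 to 0.27 for FOSB and from -0.0336 to 0.068 for EGR1 with ipatasertib, and from -0.0689 to 0.19 for FOS with tazemetostat. With the combination it ranged from -0.24 to 0.0146 for FOSB and from -0.00668 to 0.22 for JUND against DMSO, and from -0.00803 to 0.22 for FOSL1 against ipatasertib. The interaction of JUNB ranged from -0.11 to 0.0496. The cause was not tested. FOS, FOSB and FOSL1 had at most 103 counts a library, which limits the precision of their values.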
